A study of Mus musculus with 12 samples.

Results

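Trdn, Sln, Actn3, Ttn, Ckm and Slc2a4 are genes best known from skeletal muscle, and their RNA was followed through 12 libraries of mouse trigeminal ganglion, the sensory ganglion that serves the face and cornea. The 6 genes (the members) were taken as a set list and were not picked by a threshold on their values. The list was made with earlier results of these data known, so counts of members called are a description and no independent test. The members are 6 of the 9969 genes that could be named by position on the GRCm38 genome, and all 6 passed the filter on low counts. Trdn and Sln passed it only through libraries of unstimulated mice, which favoured a fall with stimulation before any test. Their summed level ran from 4.25 CPM (counts scaled to 1e6 per library) in the lowest library to 224.6 CPM in the highest. It was highest in 1 control library and in the 3 libraries of injured mice without stimulation, and at most 25.1 CPM in the 6 libraries of electrically stimulated mice, though 1 control library was as low.

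Every mouse was a female of strain C57BL/6J aged 8 weeks, and each of the 4 groups had 3 libraries. Control mice were untreated. Injured mice had a corneal keratectomy 1.5 mm wide, which takes the epithelium and upper stroma off an eye chosen at random, and ganglia were taken 2 weeks later. Mice of the injury-ES group had the same wound and then electrical stimulation (ES, a biphasic ramp of 300 µA at 20 Hz for 4 min daily over 14 days) from a cathode on the skin over the orbit to an anode on the abdomen. ES-only mice had the current and no wound. The wounded groups also received ketamine, xylazine and a slow-release analgesic, and the stimulated groups were under isoflurane at each session, so these exposures cannot be told apart from the treatments. The submitters also describe a sham arm, which no label names. Neither the number of mice per library nor the side of the ganglia is labelled, so p-values measure only the spread between these libraries, which may be technical.

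A muscle fibre contracts when calcium leaves the sarcoplasmic reticulum, an internal calcium store, and lets myosin heads pull on actin within repeating units called sarcomeres. Triadin (Trdn) links the calcium release channel of that store to its calcium buffer, and sarcolipin (Sln) is a very small membrane protein that slows the pump returning calcium to it. Titin (Ttn) is the giant elastic protein spanning the sarcomere, and Actn3 encodes the alpha-actinin that anchors actin filaments in fast fibres. Ckm encodes the muscle form of creatine kinase, which regenerates ATP from phosphocreatine, and Slc2a4 encodes the glucose transporter that insulin and contraction bring to the surface of muscle and fat cells. Trigeminal ganglia consist of sensory neurons, satellite glia, Schwann cells, vessels and connective tissue and contain no muscle fibres, while chewing and eye muscles lie close by in the skull.

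The deposited counts belong to intervals whose coordinates come from another genome build than the reads, so each gene was read through the interval that covers its GRCm38 exons and no other gene's. Only a part of each gene was therefore measured, and examples of the coding exons under each interval are printed. Other counted coding exons, among them most of those of Ttn, are left out. Capitals mark the bases under the counting interval and lower case the rest of the same coding exon. The sequences are GRCm38 coding exons from 5′ to 3′ along the gene, with exons numbered in the GENCODE M21 transcript that holds them.
Ckm exon 2, chr7:19414138-19414330, plus strand: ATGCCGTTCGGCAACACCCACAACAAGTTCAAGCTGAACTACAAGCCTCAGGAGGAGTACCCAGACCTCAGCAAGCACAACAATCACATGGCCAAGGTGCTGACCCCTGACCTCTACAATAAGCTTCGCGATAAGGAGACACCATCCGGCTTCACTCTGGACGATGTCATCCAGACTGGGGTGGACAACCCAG
Ckm exon 3, chr7:19414897-19415051, plus strand: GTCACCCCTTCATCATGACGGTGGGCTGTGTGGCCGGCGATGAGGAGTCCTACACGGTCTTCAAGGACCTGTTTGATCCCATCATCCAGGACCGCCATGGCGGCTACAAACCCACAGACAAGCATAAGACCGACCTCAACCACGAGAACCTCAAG
Actn3 exon 21, chr19:4861348-4861503, minus strand: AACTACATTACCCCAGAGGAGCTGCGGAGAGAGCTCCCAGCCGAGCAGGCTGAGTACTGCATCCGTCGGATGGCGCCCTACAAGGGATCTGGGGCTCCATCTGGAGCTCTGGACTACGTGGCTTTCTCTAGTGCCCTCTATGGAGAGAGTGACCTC
Ttn exon 97, chr2:76873067-76873159, minus strand: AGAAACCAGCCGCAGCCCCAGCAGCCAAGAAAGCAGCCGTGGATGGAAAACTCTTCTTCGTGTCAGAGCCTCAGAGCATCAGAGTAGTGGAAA
Trdn exon 9, chr10:33200163-33200254, plus strand: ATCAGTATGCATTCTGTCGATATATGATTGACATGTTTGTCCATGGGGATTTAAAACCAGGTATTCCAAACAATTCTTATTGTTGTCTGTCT
Sln exon 2, chr9:53853473-53853565, plus strand: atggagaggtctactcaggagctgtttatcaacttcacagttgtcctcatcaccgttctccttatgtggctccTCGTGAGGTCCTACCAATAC
Slc2a4 exon 6, chr11:69945563-69945725, minus strand: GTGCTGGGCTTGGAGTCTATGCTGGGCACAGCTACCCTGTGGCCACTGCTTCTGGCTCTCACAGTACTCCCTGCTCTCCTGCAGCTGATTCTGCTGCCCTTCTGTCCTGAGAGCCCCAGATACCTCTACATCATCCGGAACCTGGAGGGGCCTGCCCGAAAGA
The measured exon length was 371 bp for Ckm, of which 352 bp are coding, 366 bp for Actn3 (234 coding) and 2848 bp for Ttn, all of it coding. It was 374 bp for Slc2a4 (242 coding), 366 bp for Trdn (92 coding) and 688 bp for Sln, where 20 bp are coding and the rest is untranslated. Own exons made up between 9.36% (Actn3) and 24.3% (Ttn) of the length of these intervals. The remainder was intron of the same gene for Trdn and Ckm (90.3% and 85.4% of the interval), so unspliced RNA counts toward them too, and mostly so for Ttn (68.4%) and Slc2a4 (50.3%). Most of the Actn3 interval (88.6%) and of the Sln interval (84.5%) lay outside the gene, as did 26.1% for Slc2a4 and 7.30% for Ttn. RNA from such flanking sequence would count toward these members, and its part in their values was not tested. The Trdn interval covers the last exon of a short transcript, and a second interval lies over 117 bp of other Trdn coding exons. The interval deposited under the name Ttn lies over 7 GRCm38 genes and was not used.

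Promoters are shown for Ckm and Ttn, the members matched in the RefSeq table of promoters (build GRCm38.p6). Each is the 250 bases before the start used in that table. The Ckm window lies inside the span of the GENCODE M21 gene (chr7:19404776-19422841), while the Ttn window lies just outside that of Ttn. Both strands were searched for CAGCTG, a form of the E-box CANNTG that myogenic bHLH factors bind, for CANNTG itself, which includes CAGCTG, and for the MEF2 motif. Capitals mark CAGCTG in the Ckm promoter and the MEF2 motif in the Ttn promoter.
Ckm promoter, chr7:19410844-19411093, plus strand: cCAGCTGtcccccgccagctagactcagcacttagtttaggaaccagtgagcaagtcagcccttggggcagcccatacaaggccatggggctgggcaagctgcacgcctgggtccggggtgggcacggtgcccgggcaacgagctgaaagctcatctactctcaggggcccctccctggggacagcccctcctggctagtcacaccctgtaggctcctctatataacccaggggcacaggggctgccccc
Ttn promoter, chr2:76982548-76982797, minus strand: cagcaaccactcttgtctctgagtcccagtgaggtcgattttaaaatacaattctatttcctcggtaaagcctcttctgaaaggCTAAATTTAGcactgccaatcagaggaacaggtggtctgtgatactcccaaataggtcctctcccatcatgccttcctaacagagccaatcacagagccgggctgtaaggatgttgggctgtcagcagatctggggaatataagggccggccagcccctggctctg
Of 32851 promoters of this length, 13.0% held CAGCTG, 66.2% held CANNTG and 2.92% held the MEF2 motif. The Ckm promoter held CAGCTG and no MEF2 motif, and the Ttn promoter held a CANNTG and a MEF2 motif but no CAGCTG. These matches describe the letters in this window and say nothing of binding in these ganglia.

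Libraries held 7952798 to 10751547 counted reads, and 13053 intervals passed the filter. The tissue label was checked against sensory neuron markers. The 6 measurable genes of 14 listed (Avil, Scn10a, Thy1, Uchl1, Nefm and Trpv1) summed to 4250 to 10480 CPM in every library, far above the muscle genes. Summed CPM of the members was 45.2, 5.35 and 224.6 in control replicates 1, 2 and 3 and 65.1, 155.9 and 123.7 in injury. It was 7.23, 25.1 and 4.25 in injury-ES and 15.4, 5.62 and 18.6 in ES-only. Control replicate 3 thus stood apart from the other controls, and control replicate 2 was as low as the lowest stimulated libraries. In such bulk samples, fewer cells of a type and less RNA per cell cannot be told apart.

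**Figure D1:**
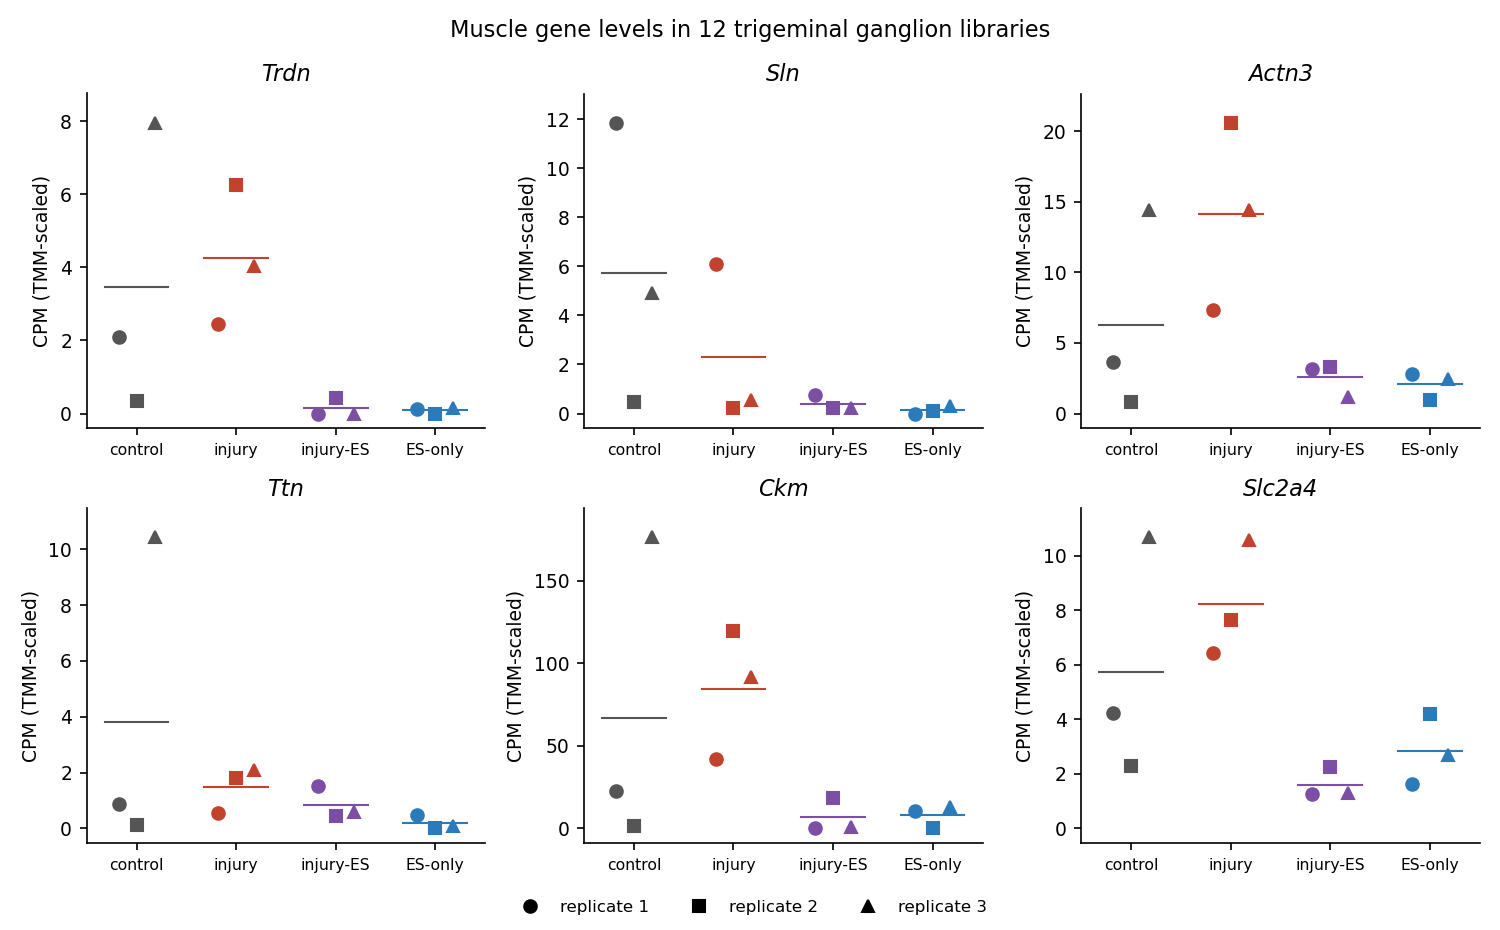
Level of each gene in CPM (linear axis, counts scaled to 1e6 with TMM) in the 12 libraries by group, with a point for each library, its shape giving the replicate number, and a bar for the group mean. Ckm reached 176.3 CPM in control replicate 3 and at most 18.4 CPM in any stimulated library, and Sln was highest in control replicate 1.

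Ckm, the creatine kinase of muscle, had by far the most reads. It had 203, 12 and 1505 reads in control replicates 1 to 3 and 381, 1124 and 663 in injury. It had 4, 172 and 8 reads in injury-ES and 90, 3 and 162 in ES-only. Within every group except injury the highest library exceeded the lowest many times over, and controls overlapped with all 3 other groups. Group means were 66.7 ± 95.5 CPM in controls, 84.6 ± 39.1 in injury, 6.63 ± 10.2 in injury-ES and 7.89 ± 6.66 in ES-only (SD, n = 3 each). Injury libraries did not overlap with either stimulated group, but injury and control overlapped, as did both stimulated groups. Ckm passed the edgeR test in no comparison. The log2 fold change (± SE, edgeR) was −3.63 ± 1.71 for stimulation after injury (adjusted p = 0.46). It was −3.05 ± 1.66 for stimulation alone against control (0.21) and 0.34 ± 1.47 for injury against control (0.89). The within-group SD of Ckm was 2.33 on the log2 scale, larger than in 99.98% of tested intervals, whose median was 0.34.

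Actn3, the fast-fibre Z-disc protein, had 33, 7 and 123 reads in controls and 66, 194 and 104 in injury. It had 25, 31 and 10 reads in injury-ES and 24, 9 and 31 in ES-only. Injury libraries were all above the 6 stimulated ones, while controls ran from below to well above them. Means were 6.29 ± 7.18 CPM in controls, 14.1 ± 6.65 in injury, 2.56 ± 1.19 in injury-ES and 2.08 ± 0.956 in ES-only (SD, n = 3 each). None of the planned comparisons called Actn3, with −2.46 ± 0.72 for stimulation after injury (adjusted p = 0.13) and 1.17 ± 0.67 for injury against control (adjusted p = 0.19). Without control replicate 3, injury against control became 2.65 ± 0.63 (adjusted p = 0.016) and stimulation after injury −2.46 ± 0.54 (adjusted p = 0.031).

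Ttn, the elastic filament, had few reads for its measured length. It had 8, 1 and 89 reads in controls and 5, 17 and 15 in injury. It had 12, 4 and 5 reads in injury-ES and 4, 0 and 1 in ES-only, where the highest library, at 0.464 CPM, exceeded only control replicate 2 and injury-ES replicate 2 among the other groups. Control replicate 3 held 55.3% of all Ttn reads. Ttn fell with stimulation alone against control (log2 fold change −4.38 ± 1.26, adjusted p = 0.015, edgeR), with 98 reads in the controls and 5 in ES-only. In depth-corrected reads it was 22.5-fold lower (95% interval 9.32 to 70.9 from counting error only). The groups overlapped, and without control replicate 3 the change was −1.47 ± 1.26 (adjusted p = 0.47).

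Trdn, the calcium release partner, had 19, 3 and 68 reads in controls and 22, 59 and 29 in injury. It had 0, 4 and 0 reads in injury-ES and 1, 0 and 2 in ES-only. Each injury library was above every stimulated library, and each control was above every ES-only library, though control replicate 2, at 3 reads, was above by little. Means were 3.47 ± 3.99 CPM in controls, 4.25 ± 1.92 in injury, 0.143 ± 0.248 in injury-ES and 0.0917 ± 0.0823 in ES-only (SD, n = 3 each). Trdn fell with stimulation alone against control (−4.96 ± 1.13, adjusted p = 0.0033) and with stimulation after injury (−4.67 ± 1.08, adjusted p = 0.036). The reads behind these were 3 against 90 (34.4-fold lower, 95% interval 11.4 to 170.2 from counting error) and 4 against 110 (27.6-fold lower, 10.5 to 102.9). Only unstimulated libraries brought Trdn past the filter on low counts, which favoured a fall with stimulation.

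The second Trdn interval fell less far in the stimulated libraries. It had 15, 4 and 61 reads in controls, 7, 23 and 9 in injury, 2, 20 and 1 in injury-ES and 8, 2 and 11 in ES-only. Here injury-ES overlapped with injury, and ES-only with control. With both intervals summed, Trdn kept its call for stimulation alone (−3.05 ± 0.96, adjusted p = 0.025) but not for stimulation after injury (−2.48 ± 0.95, adjusted p = 0.27) or for injury-ES against control (−2.67 ± 0.95, adjusted p = 0.064).

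Sln, the inhibitor of the calcium pump, had 107, 4 and 42 reads in controls and 55, 2 and 4 in injury. It had 6, 2 and 2 reads in injury-ES and 0, 1 and 4 in ES-only. Its high libraries were control replicates 1 and 3 and injury replicate 1, so that injury libraries with much Ckm could have almost no Sln. Only those high libraries, all unstimulated, brought Sln past the filter on low counts, which favoured a fall with stimulation. Sln fell with stimulation alone against control (−5.05 ± 1.29, adjusted p = 0.0079), on 5 against 153 reads, 35.1-fold lower (95% interval 14.7 to 109.8 from counting error). The 3 controls were all above the ES-only libraries in CPM, with control replicate 2 at 0.455 and the highest ES-only library at 0.318, whereas injury-ES replicate 1, at 0.761, was above that control. Sln also fell with injury and stimulation against control (−3.82 ± 1.18, adjusted p = 0.035), and injury-ES against injury gave −2.51 ± 1.20 (adjusted p = 0.42), with overlap in both.

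Slc2a4, the insulin-responsive glucose transporter, was the steadiest of the 6. It had 38, 20 and 91 reads in controls and 58, 72 and 76 in injury. It had 10, 21 and 11 reads in injury-ES and 14, 38 and 34 in ES-only. Injury libraries were all above both stimulated groups, and injury-ES was just below the lowest control, at 2.25 against 2.28 CPM. Means were 5.72 ± 4.39 CPM in controls, 8.21 ± 2.12 in injury, 1.61 ± 0.559 in injury-ES and 2.84 ± 1.29 in ES-only (SD, n = 3 each). Slc2a4 fell with stimulation after injury (−2.33 ± 0.51, adjusted p = 0.026) and with injury and stimulation against control (−1.81 ± 0.52, adjusted p = 0.024), and gave −1.002 ± 0.48 for stimulation alone against control (adjusted p = 0.13). Its within-group SD of 0.63 on the log2 scale was the smallest of the members, yet larger than in 88.8% of tested intervals.

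Levels were also compared between genes per kb of measured exon. The mean over 12 libraries was 111.7 CPM per kb for Ckm, 17.1 for Actn3, 12.3 for Slc2a4, 5.43 for Trdn, 3.12 for Sln and 0.554 for Ttn. Ckm was clear of the others in the mean, but it was not the highest in the 4 libraries with at most 12 Ckm reads. The order of the other members also changed in libraries with more Ckm reads. In control replicate 1, for example, Sln (17.2 CPM per kb) was above Slc2a4 (11.3) and Actn3 (9.995). Because introns and flanking sequence lie under the intervals in different amounts, the order of the means belongs to the measured stretches and not to whole transcripts.

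Stimulation alone against control gave the lowest median of the members. Trdn, Sln and Ttn fell, 3 of 6 members, where 29.8% of all tested intervals were called and 11.7% were called lower. All 6 members had a log2 fold change below 0, with a median of −3.71 against 0.03 over all tested intervals. Trdn and Sln passed the filter only through unstimulated libraries, and Ttn through such libraries and injury-ES replicate 1. Their falls were thus favoured by the filter. Trdn and Sln had groups that did not overlap, which held in the lower direction for 21.0% of intervals. Without control replicate 3, Trdn (−3.47 ± 1.13, adjusted p = 0.042) and Sln (−5.15 ± 1.38, adjusted p = 0.017) still passed, whereas Actn3 (−0.09), Ckm (−0.57) and Slc2a4 (−0.18) were close to 0. Trdn and Sln stayed called in all 12 fits that left out a library, and Ttn was also lost without ES-only replicate 2 or 3. Actn3 and Slc2a4 were called only without control replicate 2 (adjusted p of 0.017 and 0.041). When only the 6 libraries of these groups were fitted, Trdn, Sln and Ttn could not be tested because they did not pass the filter there, and none of the other 3 members was called.

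Stimulation after injury against injury alone had few calls anywhere, so the members stand against a small background. Trdn and Slc2a4 fell, 2 of 6 members, where 1.54% of all tested intervals were called and 1.50% were called lower. Trdn passed the filter only through unstimulated libraries, which favoured its fall before any test. All 6 members were below 0, with a median log2 fold change of −2.48 against 0.00 over all intervals. Trdn, Actn3, Ckm and Slc2a4 were lower in all 3 libraries than in any injury library, a lack of overlap found in the lower direction for 10.1% of intervals. Both calls were close to the threshold. Without TMM scaling neither held (adjusted p of 0.10 for Trdn and 0.097 for Slc2a4), and Trdn missed it under upper-quartile scaling (0.052). Leaving out single libraries ended the Trdn call in 6 of 12 fits and the Slc2a4 call in fewer (adjusted p up to 0.24 and 0.22). Both ended without any 1 of the 3 injury libraries or without injury-ES replicate 3, and Trdn also without injury-ES replicate 1 or ES-only replicate 1.

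Injury-ES against control called Trdn (−4.38 ± 1.09, adjusted p = 0.012), Sln and Slc2a4 lower, 3 of 6 members, where 17.2% of intervals were called and 4.93% were called lower. The median of the 6 was −2.73 against −0.02 over all intervals, and Slc2a4 was the only member without overlap (15.2% of intervals in the lower direction). These controls are the same libraries as in the comparison with stimulation alone. Trdn and Sln had again passed the filter only through unstimulated libraries, which favoured their falls. All 3 calls ended without control replicate 3, at −2.90 ± 1.09 for Trdn (adjusted p = 0.11), −3.92 ± 1.27 for Sln (0.069) and −1.0002 ± 0.48 for Slc2a4 (0.21), and none of the 3 members that passed the filter was called in a fit of these groups alone. Trdn and Slc2a4 were also lost without injury-ES replicate 1 or 3, and Sln without control replicate 1, any 1 injury-ES library or ES-only replicate 3.

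Injury against control called 0 of 6 members by edgeR, although 31.0% of tested intervals were called and 42.4% had an unadjusted p under 0.05. DESeq2 called 0 of 6 as well, and no member had an unadjusted edgeR p under 0.05. Of the members, 4 were above 0 and 2 (Sln and Ttn) below, with a median of 0.32. Injury-ES against stimulation alone also called 0 of 6 by either tool (4.07% of intervals called, 19.5% with an unadjusted p under 0.05), with values from −0.81 for Slc2a4 to 2.21 for Ttn. The interaction, which asks whether stimulation acted differently with and without injury, called 0 of 6 by either tool, against 19.2% of intervals (33.4% with an unadjusted p under 0.05). Ttn had the smallest p there (3.57 ± 1.69, unadjusted p = 0.0496, adjusted p = 0.15), and its call for stimulation alone and lack of one after injury are thus not shown to differ.

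Since both stimulated groups were low, all 6 stimulated libraries were set against all 6 others with each group weighted alike, a contrast chosen after the data were seen. It called 5 of 6 members lower, where 15.5% of intervals were called and 6.62% were called lower. Here too the filter favoured the falls of Trdn and Sln. Trdn fell (−4.82 ± 0.78, adjusted p = 0.0010), as did Sln (−3.78 ± 0.88, adjusted p = 0.010) and Actn3 (−2.02 ± 0.51, adjusted p = 0.016). Ttn (−2.59 ± 0.84, adjusted p = 0.045) and Slc2a4 (−1.67 ± 0.35, adjusted p = 0.0056) fell too. Ckm had −3.34 ± 1.19 (adjusted p = 0.10). In no member were the 6 stimulated libraries all below the other 6, a lack of overlap found in 1.15% of intervals, and control replicate 2 lay among the stimulated ones. Trdn and Slc2a4 stayed called in all 12 fits that left out a library. Sln was called in 10 of them, with the losses without injury replicate 1 and injury-ES replicate 2 (adjusted p up to 0.089). Actn3 was called in 8, with the losses without control replicate 3, injury-ES replicates 1 and 2 and ES-only replicate 3 (adjusted p up to 0.072). Ttn was called in 3, those without control replicate 1, control replicate 2 or ES-only replicate 1, and its adjusted p reached 0.41 without control replicate 3. Among these fits Ckm was called only without injury-ES replicate 2 (adjusted p = 0.049), but DESeq2 on all 12 libraries called it (−3.38 ± 1.13, adjusted p = 0.017). In edgeR, Actn3 lost its call with no filter (adjusted p = 0.10). Ttn lost its call without TMM scaling (adjusted p = 0.054) and with the replicate block (adjusted p = 0.10).

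**Figure D2:**
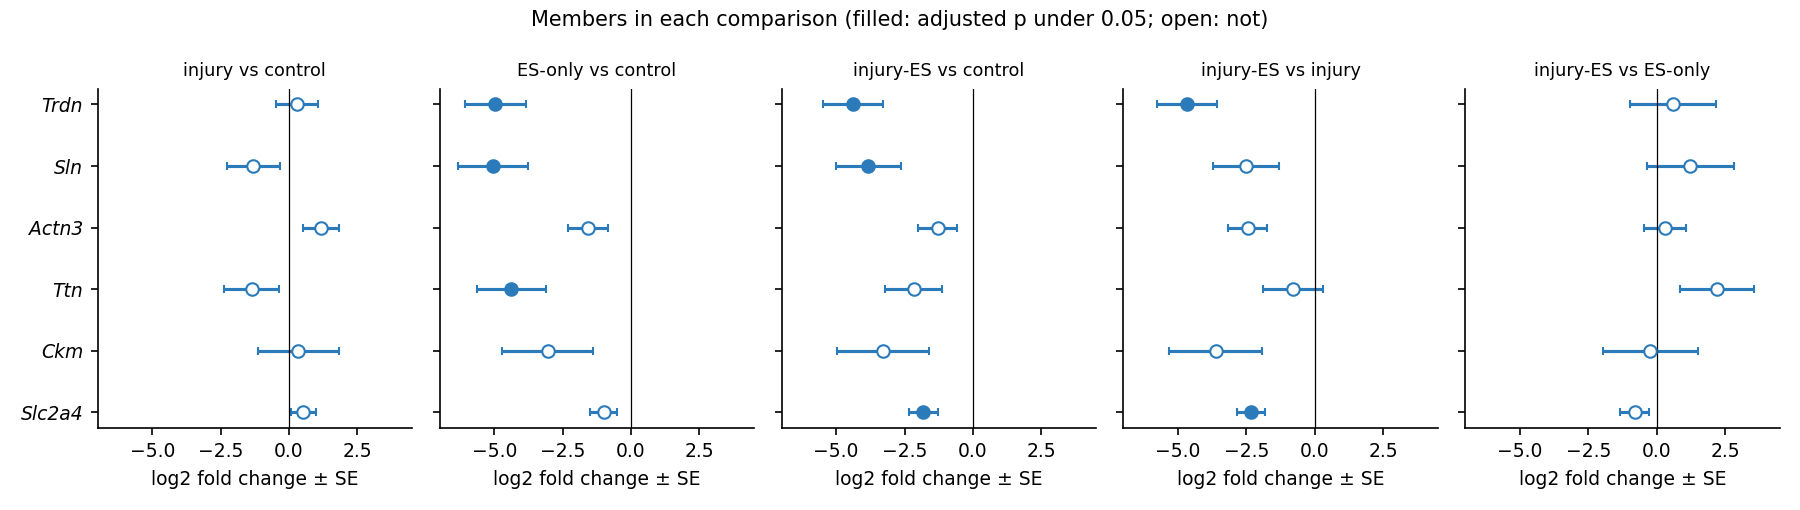
Log2 fold change (x axis) with its standard error for the 6 genes in 5 comparisons between groups of 3 libraries, from 1 edgeR fit of 12 libraries, with filled points for an adjusted p under 0.05. Every point of the 3 comparisons of a stimulated group with an unstimulated one lies below 0, from −5.05 for Sln to −0.81 for Ttn, and the filled ones are Trdn, Sln, Ttn and Slc2a4.

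How far the members rose and sank together was measured against Ckm on log2(CPM + 0.5) over 12 libraries, in 5 relations. Trdn followed Ckm closely (Pearson r = 0.90, adjusted permutation p = 0.00053; Spearman rho = 0.97, 5e-05), and so did Actn3 (r = 0.90, 0.00053; rho = 0.87, 0.0012). Slc2a4 (r = 0.79, 0.0061; rho = 0.81, 0.0033) and Ttn (r = 0.63, 0.029; rho = 0.64, 0.035) followed less tightly. Sln did not pass (r = 0.41, 0.19; rho = 0.37, 0.24). Leaving out the 2 libraries farthest from the median of Ckm gave r of 0.89 for Trdn, 0.96 for Actn3, 0.89 for Slc2a4, 0.73 for Ttn and 0.37 for Sln. With each group's mean removed, r was 0.87 for Trdn, 0.85 for Actn3, 0.62 for Ttn, 0.54 for Slc2a4 and 0.21 for Sln. These values pool 4 groups and do not hold within each: in ES-only Slc2a4 was highest where Ckm was lowest, and in injury-ES Ttn was highest where Ckm was lowest. These points share library and depth. The permutations took no account of group, so differences between groups count toward the p-values. The r with each group's mean removed was not tested.

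**Figure D3:**
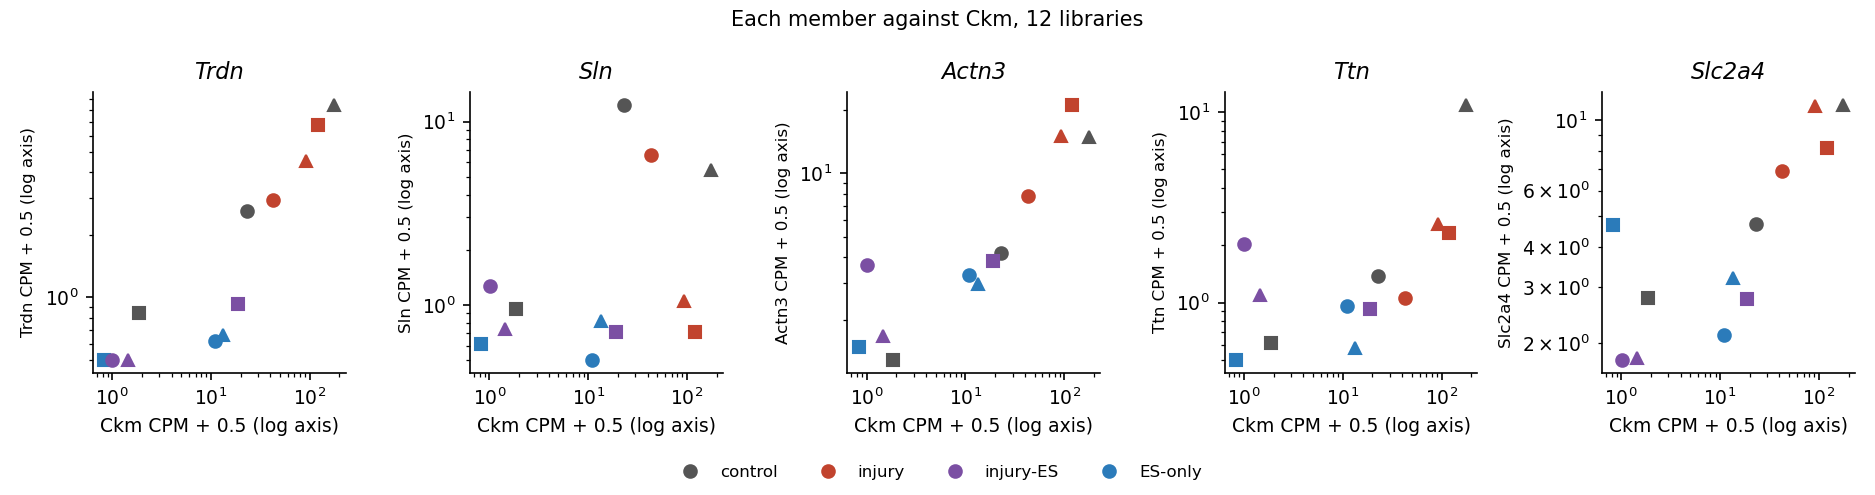
CPM + 0.5 of each gene against CPM + 0.5 of Ckm, both on log axes, with a point for each of 12 libraries coloured by group and shaped by replicate number. Trdn and Actn3 rise with Ckm (Pearson r = 0.90 each), while the 2 highest Sln points, control replicate 1 and injury replicate 1, have middling Ckm (Pearson r = 0.41).

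Proportions between members differed from library to library. Among the 8 libraries with at least 50 Ckm reads, Actn3 per kb stood at 8.28% to 27.0% of Ckm per kb and Slc2a4 at 6.00% to 20.8%. Sln per kb was 28.4% of Ckm in control replicate 1, 1.50% in control replicate 3 and 0.0960% in injury replicate 2. Trdn per kb was 4.43% to 9.49% of Ckm in the 5 unstimulated libraries among them and 1.13% to 2.36% in the 3 stimulated ones, on 4, 1 and 2 reads. The second Trdn interval went the other way, with 6.79 to 11.6 reads per 100 Ckm reads in these 3 libraries, 1.36 to 2.05 in injury and 4.05 and 7.39 in control replicates 3 and 1. Slc2a4 kept reads where Ckm had nearly none, with 38 reads beside 3 of Ckm in ES-only replicate 2. Actn3 likewise had 25 reads beside 4 of Ckm in injury-ES replicate 1.

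Among 4198 other genes named by position with a mean of at least 1 CPM, 5 had a Pearson r over 0.90 with the members' mean standardised level. These 4198 passed the filter and leave out predicted genes (Gm and Rik names) and pseudogenes. The 8 most alike over the 12 libraries were Lmod2 (r = 0.96), a leiomodin that lengthens actin filaments, Eno3 (0.96), the beta form of the glycolytic enzyme enolase, and Myoz3 (0.93), a Z-disc protein. They were followed by Ppp1r3a (0.90), which targets a phosphatase to glycogen, Casq1 (0.90), the calcium buffer of the sarcoplasmic reticulum, and Ryr1 (0.899), its release channel. Rpl3l (0.89), a ribosomal protein, and Mybpc2 (0.89), a myosin-binding protein, completed them. Eno3 had 186, 79 and 355 reads in controls, 278, 362 and 196 in injury, 122, 151 and 84 in injury-ES and 86, 80 and 130 in ES-only. Its injury libraries were above all stimulated ones and its low values stayed well above 0, unlike Lmod2, which had no read in 4 libraries. These values describe a likeness of pattern, with no test.

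**Figure D4:**
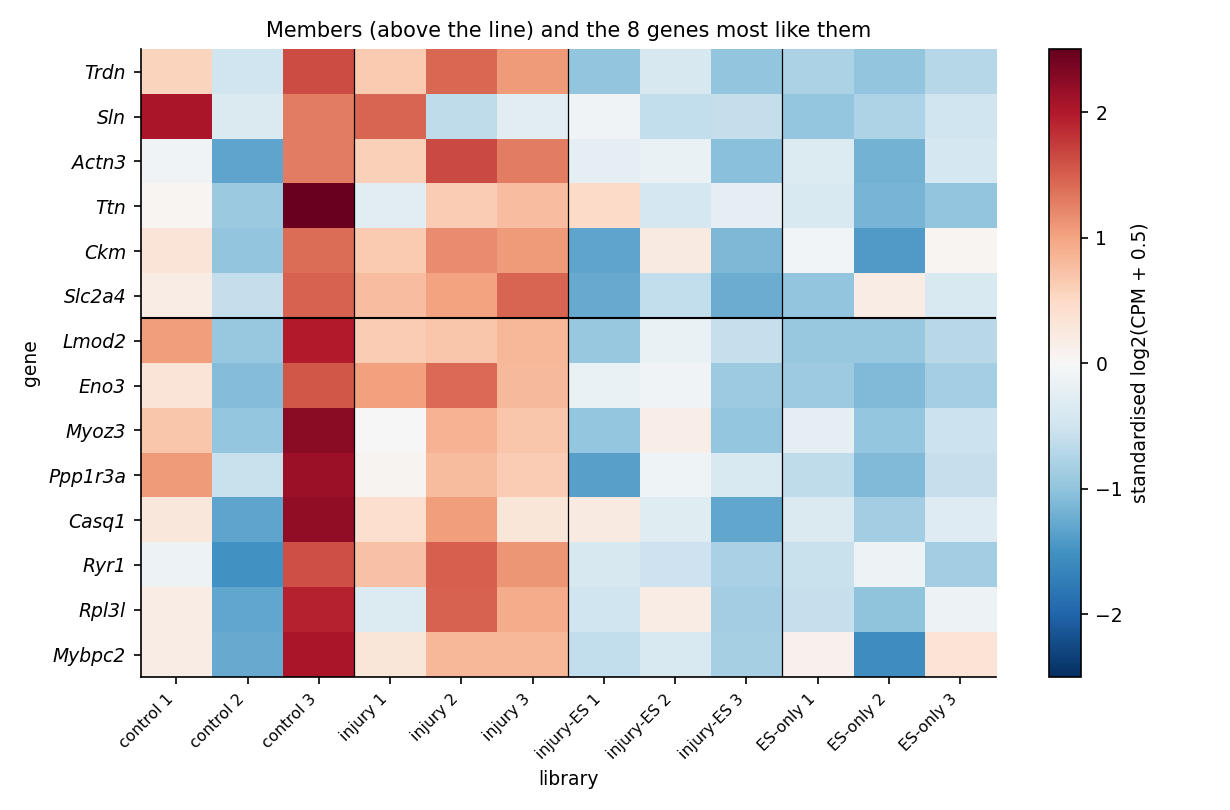
Log2(CPM + 0.5) of each gene, standardised over 12 libraries, with the 6 members above the line and the 8 genes most like their mean below it, and red for high and blue for low. Control replicate 3 and injury replicates 2 and 3 are red in nearly every row, and control replicate 2 and the stimulated libraries are mostly blue.

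Other skeletal muscle genes came from lists of 126 genes, of which 43 had an interval and 32 could be tested. Of 11 tested sarcomere genes, Myoz3 (−3.73 ± 1.31, adjusted p = 0.041) and Lmod2 (−6.01 ± 1.35, adjusted p = 0.0031) fell with stimulation alone. Over all tested intervals 29.8% were called there and 11.7% were called lower. The 11 had a median of −1.18, all below 0, which leaves out those of the 18 sarcomere genes with an interval that did not pass the filter. Lmod2 had 34, 0 and 97 reads in controls and 0, 0 and 2 in ES-only, so the groups overlapped at 0. For the calls below, the share of all tested intervals called was 31.0% with injury, 1.54% with stimulation after injury and 17.2% with injury-ES against control. Flnc, a filamin at the Z-disc that other cells also make, rose with injury (0.90 ± 0.16, adjusted p = 0.0013). It fell with stimulation after injury (−1.11 ± 0.16, adjusted p = 0.0028), the single sarcomere call there. With injury and stimulation against control, Lmod2 (−3.98 ± 1.12, adjusted p = 0.022) and the muscle ring-finger ubiquitin ligase Trim54 (−4.90 ± 1.61, adjusted p = 0.045) fell. Lmod2, Myoz3 and Trim54 passed the filter only through unstimulated libraries, which favoured a fall with stimulation. Fhl1, a LIM-domain protein, fell with injury (−1.34 ± 0.37, adjusted p = 0.013). The other highly counted sarcomere-list genes, Tpm2 (a tropomyosin) and Fbxo32 (a ubiquitin ligase of muscle wasting), passed in none of the 6 planned comparisons.

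None of the 6 tested genes of calcium release and excitation passed in a planned comparison, though all 6 were below 0 with stimulation alone against control (median −1.25) and with stimulation after injury (median −1.23). In these comparisons 29.8% and 1.54% of all tested intervals were called. Atp2a1, the calcium pump of fast fibres, had 298, 25 and 3541 reads in controls, 539, 1833 and 739 in injury, 0, 380 and 10 in injury-ES and 217, 16 and 463 in ES-only. Its order of libraries resembled that of Ckm, with control replicate 3 and injury replicate 2 highest, and its errors were as wide (−3.06 ± 1.91 for stimulation after injury, adjusted p = 0.60). Ryr1 (−1.92 ± 0.59, adjusted p = 0.14), Casq1 and the sarcalumenin gene Srl, which also belong here, did not pass.

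Metabolic genes of muscle were mixed. For their calls below, the share of all tested intervals called was 31.0% with injury and 29.8% with stimulation alone. It was 1.54% with stimulation after injury and 19.2% for the interaction. Of 8 tested, Pfkm, the muscle form of phosphofructokinase, rose with injury (0.72 ± 0.17, adjusted p = 0.0051) and with stimulation alone (0.75 ± 0.17, adjusted p = 0.0031) and had 2400 to 5153 reads in every library, including those with almost no Ckm. Adssl1, an enzyme of purine synthesis, rose with injury (1.86 ± 0.30, adjusted p = 0.00099) and fell with stimulation after injury (−1.83 ± 0.30, adjusted p = 0.0061). Eno3 fell with stimulation alone (−1.28 ± 0.37, adjusted p = 0.015), and Phka1, a subunit of phosphorylase kinase, fell with injury (−1.14 ± 0.35, adjusted p = 0.022). The interaction was below 0 and called for Pfkm, Adssl1 and Pygm, the muscle glycogen phosphorylase (−2.38 ± 0.71, adjusted p = 0.036), while Pdk4, a kinase that restrains pyruvate use, passed nowhere.

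Genes of the neuromuscular junction and of myogenic control gave other calls. Of all tested intervals, 31.0% were called with injury, 29.8% with stimulation alone and 17.2% with injury-ES against control. Of 3 tested junction genes Dok7, an activator of the kinase MuSK, rose with injury (0.98 ± 0.28, adjusted p = 0.015), stimulation alone (1.03 ± 0.28, adjusted p = 0.0097) and injury-ES against control (0.97 ± 0.28, adjusted p = 0.025). Musk and Colq passed in none, and the acetylcholine receptor gene Chrnd had 0 reads in all 12 libraries. The transcription factors Mef2a (−1.72 ± 0.59, adjusted p = 0.036) and Mef2d (−0.89 ± 0.26, adjusted p = 0.016) fell with injury. Myod1, a master regulator of muscle fate, did not pass the filter and had its highest count, 15 reads, in control replicate 3. Sgcb and Dysf of the muscle membrane complexes passed in none of the planned comparisons.

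Relatives of the members that other cells make were measured beside them, against the same shares of all intervals called (31.0% with injury, 29.8% with stimulation alone and 17.2% with both). Ckb, the creatine kinase of brain and nerve, had 15741 to 58987 reads and rose with injury (1.41 ± 0.26, adjusted p = 0.0017), stimulation alone (1.41 ± 0.26, adjusted p = 0.00092) and both together (1.22 ± 0.26, adjusted p = 0.0067), always against the same controls. In injury-ES replicate 1 it had 45969 reads beside 4 of Ckm. The widely made actinin Actn1 rose in the same comparisons (0.57 ± 0.15, 0.47 ± 0.15 and 0.53 ± 0.15, adjusted p of 0.0090, 0.025 and 0.022), and Actn4 (0.85 ± 0.21, adjusted p = 0.0067) and the calcium pump Atp2a3 rose with stimulation alone. Of the glucose transporters, Slc2a12 fell with stimulation alone (−1.49 ± 0.51, adjusted p = 0.037) and with injury and stimulation against control (−2.35 ± 0.55, adjusted p = 0.0094), and Slc2a9 passed in none, while Slc2a1 and Slc2a3 did not pass the filter.

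Markers of other tissues near the ganglion were summed in the same libraries. The 4 measurable oligodendrocyte genes summed to 588.2 to 1069 CPM after injury and 145.7 to 459.7 CPM in the other 9 libraries, and the 5 meningeal genes to 21710 to 22470 CPM after injury and 2607 to 7177 CPM elsewhere. All 4 oligodendrocyte genes and 4 of 5 meningeal genes rose with injury and fell with stimulation after injury, where 31.0% and 1.54% of all tested intervals were called. Mog, a myelin protein, was at 2.06 ± 0.33 (adjusted p = 0.00099) and −2.24 ± 0.33 (adjusted p = 0.0034). Both sums were thus higher in every injury library than in any other library. No member was called with injury against control, and each overlapped with control there. In control replicate 3, where Trdn, Ttn, Ckm and Slc2a4 had their highest values, the sums were 194.5 and 5582 CPM. In control replicates 1 and 2 they were 321.0 and 197.3 CPM for the oligodendrocyte genes and 5186 and 5133 CPM for the meningeal genes. The 2 measurable fat genes of 12, with Lep at 3 reads or fewer in every library, summed to at most 1.29 CPM, and the 4 smooth muscle genes to 4.64 to 11.7 CPM with none of the 2 tested called in a planned comparison. The 3 bone and cartilage genes summed to 0.796 to 7.17 CPM, and Dmp1, a protein of bone matrix, rose with injury (1.56 ± 0.48, adjusted p = 0.023) and with stimulation alone (1.60 ± 0.48, adjusted p = 0.019) and had a negative interaction (−2.43 ± 0.67, adjusted p = 0.020). The 3 red cell genes summed to 11.95 to 88.4 CPM. Alas2, an enzyme of haem synthesis in red cells, rose with injury (1.42 ± 0.34, adjusted p = 0.0058). Alas2 and Slc4a1, the red cell anion exchanger, were higher in injury-ES than in control (1.17 ± 0.34 and 1.23 ± 0.40, adjusted p of 0.025 and 0.043) and than in ES-only (1.87 ± 0.34 and 1.83 ± 0.41, adjusted p of 0.012 and 0.020). The cardiac and pituitary lists had no gene with an interval. The part of carried-over tissue in the levels of the members was not tested.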

How the data were processed

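Counts per interval for 12 libraries were deposited by the authors as whole numbers, made with featureCounts 2.0.6 on paired, unstranded reads with Ensembl 110 gene models, per the file headers. FastQC, Salmon 1.10.2 and DESeq2 are listed in the submitters' processing notes. The aligner is not given in the sources used here. Intervals over GRCm38 exons held 98.6% to 99.3% of nuclear counts, so genes were named by position with GENCODE M21. The interval over exons of only that gene, at least 100 bp and with most exon bases, took the name.

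Levels (CPM) are counts scaled to 1e6 after TMM scaling. Tests were edgeR 4.0.16 quasi-likelihood tests (robust, filterByExpr) in 1 fit of 12 libraries without covariates, adjusted by Benjamini-Hochberg over 13053 intervals and called at an adjusted p under 0.05. The 4 groups are control, injury, injury-ES and ES-only. The fit was tested on counts simulated with the spread usual for the level of each interval. Every member had a larger spread (for Ckm a biological coefficient of variation of 1.34 against 0.17), so the simulation does not cover them. DESeq2 1.42.0, other scalings, no filter, a replicate block, summed intervals, fits of 2 groups and fits without each library were alternatives. Counting intervals of read ratios are exact binomial at 95%, and PCR copies make them cover counting error only. Correlation p-values come from 100000 permutations, adjusted over 5 relations. R 4.3.3, Python 3.11.15, scipy 1.17.1 and matplotlib 3.10.9 were used.

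Named genes are the members, from each muscle or relatives list the 4 genes with the highest mean CPM and any gene called in a planned comparison, and the 8 genes most alike. The members and lists were chosen with earlier results of these data known. Unstranded counting cannot separate a gene from RNA of the opposite strand.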

Additional observations from a re-analysis of the deposited data

How the results depend on the processing

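Depth limits Trdn, Sln and Ttn, which had 0 to 12 reads in each stimulated library. Of 156 values of called members without 1 library, 40 lost the call and 0 changed sign, and of 79 under other settings 10 lost it and 0 changed sign. Counts of members called, without each library in turn, ran from 0 to 1 for injury against control, 0 to 3 for stimulation after injury, 2 to 5 for stimulation alone, 0 to 3 for injury-ES against control, 0 to 1 for the interaction and 3 to 5 for all stimulated libraries. They stayed at 0 for injury-ES against stimulation alone.

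For stimulation after injury, the 2 calls became 1 with upper-quartile scaling, 0 without TMM scaling and 1 with summed intervals. In fits of the compared groups alone, the 3 calls became 0 for stimulation alone and 0 for injury-ES against control, with 3 members tested in each. The interaction had 1 call (Ttn) with no filter. The cause of the scaling changes was not tested. Trdn with injury against control was −0.19 with summed intervals.

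Uncalled values changed sign when 1 library was left out, with these ranges. Injury against control gave −0.24 to 1.78 for Trdn, −0.23 to 2.82 for Ckm and −1.93 to 1.53 for Ttn. Stimulation after injury gave −3.29 to 0.0909 for Sln. Injury-ES against control gave −1.81 to 0.19 for Actn3 and −2.86 to 0.72 for Ttn. Injury-ES against stimulation alone gave −3.40 to 0.34 for Ckm, −2.99 to 1.23 for Trdn and −0.0014 to 0.65 for Actn3. The interaction gave −3.19 to 1.03 for Trdn and −3.64 to 0.0945 for Ckm. Fitted values of Trdn without its last reads depend on the prior count.

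Replicate numbers did not pair the libraries (correlations of −0.29 to 0.22 over 18 same-numbered pairs, and 2 of 12 libraries correlated best with their own number). With the replicate block, stimulation after injury had 1 call, with Trdn no longer called (−4.72 ± 1.101, adjusted p = 0.057), and the contrast of all stimulated libraries had 4.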

Other observations

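Fast myosin heavy chain genes could not be named singly, because 1 interval (GRCm38 chr11:67212484-67262412) lies over Myh1, Myh4 and the antisense gene Myhas. This interval, chosen after its values were seen, had 218, 8 and 2577 reads in controls, 537, 1635 and 911 in injury, 7, 380 and 4 in injury-ES and 204, 4 and 374 in ES-only. The same 4 libraries that had at most 12 Ckm reads were the lowest here, and control replicate 3 was again the highest.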
